A study of Rattus norvegicus with 372 samples.

Results

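Valproic acid at 10000 µM was the higher of both concentrations at which this drug was given to primary rat hepatocytes, and it was compared with the vehicle wells of the same batch. The wells were chosen by their labels alone, which gave 12 of the 372 libraries of the study, 6 by the TempO-Seq whole transcriptome (WT) assay and 6 by the surrogate (ST) assay of the same lysates. Freshly isolated hepatocytes of male Wistar rats were kept between layers of collagen in a medium with insulin, dexamethasone and EGF, and the treated wells, with their vehicle wells, held 0.5% DMSO for the 24 h of treatment. The hepatocytes of a batch came from a single rat, so the 3 wells of a group in a batch were technical replicates, and the 2 batches were the biological replicates. There were 3 vehicle wells in batch 1, on the plate of the treated wells, and 6 in batch 2, of which 3 were on the plate of the treated wells. The wells with 400 µM valproic acid, also 3 per batch, served as a second comparison. In TempO-Seq, a pair of detector oligos is ligated on its transcript and counted by sequencing, so a level is given as CPM, the counts of a gene scaled to a common library size, and cannot be set against the level of another gene.

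Valproic acid is a short branched fatty acid given as an anticonvulsant and mood stabilizer. It inhibits class I histone deacetylases (HDACs), enzymes that take acetyl groups off histone tails and so help keep silent genes closed. In the liver the drug is bound to coenzyme A, burned in part by mitochondrial and microsomal oxidation and conjugated to glucuronic acid. Fatty liver and high blood ammonia are known adverse effects, and fatty acids of this kind can activate PPARα, the nuclear receptor that turns on fatty acid oxidation in rodents.

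At 10000 µM, 3410 of the 10191 genes tested were higher than in vehicle (33.5%) and 3384 were lower (33.2%), together 66.7% at an adjusted p under 0.05 by the quasi-likelihood test of edgeR, in which batch entered the model. The median log2 fold change (L2FC) of all genes tested was -0.0025. An L2FC over 1 was reached by 999 of the higher genes and an L2FC under -1 by 1342 of the lower ones, and beyond 4 there were 41 and 39. In 1702 genes (16.7%) each treated well was above each vehicle well, and in 1781 (17.5%) each was below. TMM scaling was used for these values, and with library totals in its place the median of all genes moved to 0.27 and 68.5% of the calls were higher in place of 50.2%. The median L2FC of the lists on valproic acid handling, lipid droplets, glucose, the respiratory chain and the cell cycle, all between -0.21 and 0 with TMM, was then above 0. The WT libraries of the treated wells held 4007480 to 7486546 reads and those of the vehicle wells 5492941 to 8264980 reads. The treated libraries spread their reads over more genes: their 10 most abundant genes took 9.59 to 11.3% of the reads in batch 1 against 12.5 to 14.0% in vehicle, and 7.84 to 8.89% against 10.5 to 11.7% in batch 2.

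Among the genes tested that met the rule for naming, with at least 50 counts on average in a group, the largest rise was in Csdc2. Genes with too few counts over all wells to be tested were not ranked. Csdc2 encodes an RNA-binding cold shock protein. It had 3 counts in the 9 vehicle wells together and 180 to 457 counts in a treated well, a ratio of 742 with a 95% counting interval of 254 to 3599. Hapln4, which links hyaluronan in the matrix around neurons, had 65.5 to 81.9 CPM in the treated wells and at most 0.721 CPM in vehicle. No treated well of either gene came near a vehicle well, but the rule that named the 15 genes with the largest rises and the 15 with the largest falls asked for wells that do not overlap within a batch.

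Hamp encodes hepcidin, the liver hormone that lowers iron uptake by binding ferroportin. Its level was 282, 355 and 373 CPM in the treated wells of batch 1 and 320, 393 and 385 CPM in those of batch 2. The vehicle wells lay between 0.855 and 3.24 CPM with a median of 2.32, so the groups were far apart in both rats. The L2FC was 7.40 ± 0.27 (SE), a 169-fold rise with an adjusted p of 7.72e-60, and against 400 µM it was 7.14 (adjusted p 2.88e-49). The wells with 400 µM held 1.55 to 3.90 CPM and overlapped those of vehicle.

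Hepcidin transcription is known to depend on BMP and SMAD signaling through elements with the letters GGCGCC, which is why the start of this gene is shown. The 300 bases from 250 before to 50 after the RefSeq start of Hamp, on the minus strand of GRCr8 at chr1:95300222-95300521, hold these letters once, in capitals, when both strands are searched.

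Hamp: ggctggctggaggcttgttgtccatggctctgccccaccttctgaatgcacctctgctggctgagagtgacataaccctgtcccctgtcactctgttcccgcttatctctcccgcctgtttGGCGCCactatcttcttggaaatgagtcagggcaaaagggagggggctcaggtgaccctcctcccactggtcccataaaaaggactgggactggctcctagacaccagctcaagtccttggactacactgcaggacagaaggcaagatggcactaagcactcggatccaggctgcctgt

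The same letters are in 12.2% of the 24206 promoters of the table with a single entry per symbol, and their presence is a description of the sequence only. Genes of BMP signaling and iron sensing, a list of 31 drawn up after the values were seen and with Hamp among its members, were mixed: of 22 tested, 8 were higher and 10 lower (9 and 6 with library totals), with a median L2FC of -0.31. Id1, an inhibitor of helix-loop-helix factors and a classical BMP target, rose from 52.1 to 129 CPM in vehicle to 1216 to 2737 CPM (L2FC 4.45 ± 0.15, adjusted p 1.4e-62). Id3 had an L2FC of 2.22 and the ligand gene Bmp7 one of 2.59. Hfe, an iron sensor, had an L2FC of -2.15, the BMP coreceptor gene Hjv one of -0.97 and Tmprss6, whose protease removes that coreceptor, one of -1.06, and these genes too were picked after their values were seen. The treated and vehicle wells of Hamp, Id1 and Hfe did not overlap, and the same holds for Tmprss6, while for Hjv they touched across the batches.

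**Figure D1:**
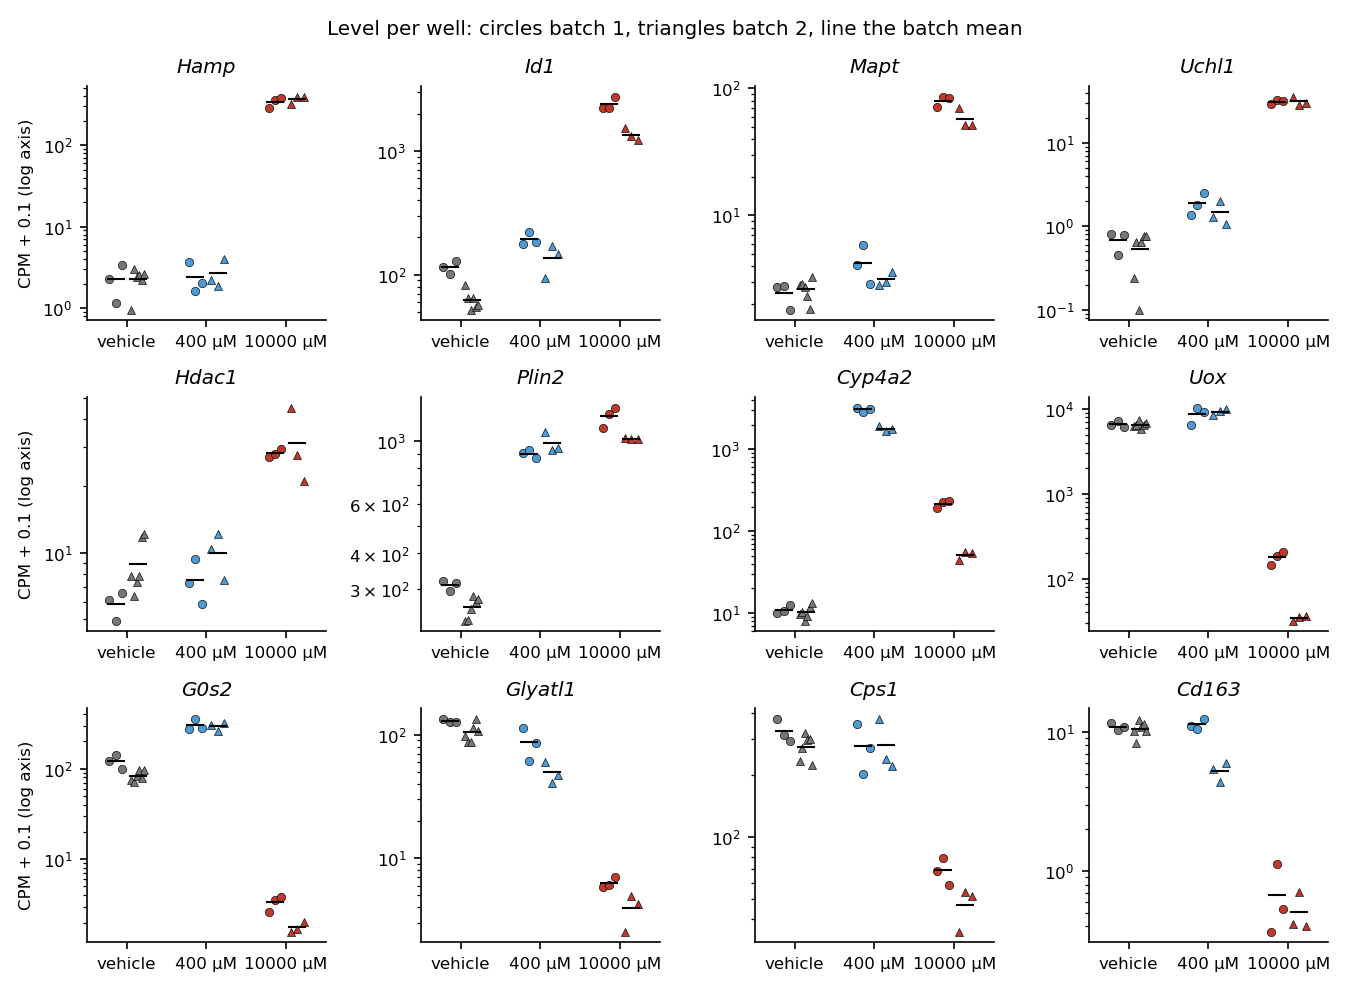
Levels of 12 genes in each well, as CPM + 0.1 on a log axis, for vehicle, 400 µM and 10000 µM valproic acid; circles are wells of batch 1, triangles wells of batch 2, and lines the mean of a batch. Hamp is at 282 to 393 CPM at 10000 µM only, Plin2 is raised at both concentrations, Cyp4a2 is highest at 400 µM, and Uox falls further in batch 2 than in batch 1.

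Genes known from neurons were higher in the treated hepatocytes. Of 39 neuronal genes with a probe, 8 passed the filter on low counts, which asks for a mean of at least 10 counts over all wells of the assay. Of these, 7 were higher and 1 was lower, with a median L2FC of 2.20. Since a gene can pass that filter through the treated wells, all 39 were also taken from the fit without a filter, where 24 were higher and 1 was lower with a median L2FC of 2.21. In that fit 22.3% of 20697 genes were higher and 19.2% lower, and the median of all genes was 0.012. Of the 39 genes, 13 had at most 3 counts in every treated well. The germ cell list, read the same way, had 25 genes with a probe, of which 3 were higher, 1 was lower and 20 had at most 3 counts in every treated well.

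Mapt encodes tau, the microtubule protein of axons. Its treated wells held 70.7, 85.9 and 83.1 CPM in batch 1 and 70.0, 51.1 and 51.8 CPM in batch 2, while the vehicle wells lay between 1.71 and 3.17 CPM with a median of 2.64, and the groups did not overlap. The L2FC was 4.73 ± 0.23 (adjusted p 2.52e-45). Uchl1, an abundant ubiquitin hydrolase of neurons, was at 28.7 to 35.9 CPM against at most 0.721 CPM in vehicle (L2FC 5.97 ± 0.31). The potassium channel gene Kcnh2 had an L2FC of 3.83 and Nefh, the heavy neurofilament, one of 2.25. Cplx2, a complexin of synaptic vesicle release, was the neuronal gene that fell, with an L2FC of -2.80.

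The raw counts were also read without that filter. In 34 of 20946 genes none of the vehicle wells exceeded 3 counts and every well with 10000 µM had at least 30. Of the 34, 31 failed the filter of the main test. The 34 genes were picked for their difference, so their values are given without a test. The neuronal list, of which 39 genes had a probe, held 2 of the 34. Those named next were chosen after their values were seen. Kif1a, a motor that carries synaptic vesicle precursors along axons, had 182 to 320 counts in a treated well and at most 2 in a vehicle well. Nova2, a splicing factor of neurons, had 105 to 229 counts, Cbln1, a synapse organizer of the cerebellum, 50 to 140, and Nefm, the medium neurofilament, 35 to 98. The 34 also held Cacna1b and Cacng7, subunits of neuronal calcium channels, and Nrgn and Tubb4a. Others were the developmental factors Tbx1, Shox2 and Dhh, and the fetal growth factor gene Igf2 with 71 to 172 counts. Further members were Lrp2, Slc1a1, Bmp8a, Dchs1 and Tcp11.

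In 22 of the 34 genes the wells with 400 µM also had at most 3 counts. Among the other 28 groups of the study, media wells included, 9 had any such gene, and the highest number was 20. In the opposite direction, 2 genes had at least 30 counts in each vehicle well and at most 3 in each treated one, Ttll10 and Snrpc, against up to 14 in another group.

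**Figure D2:**
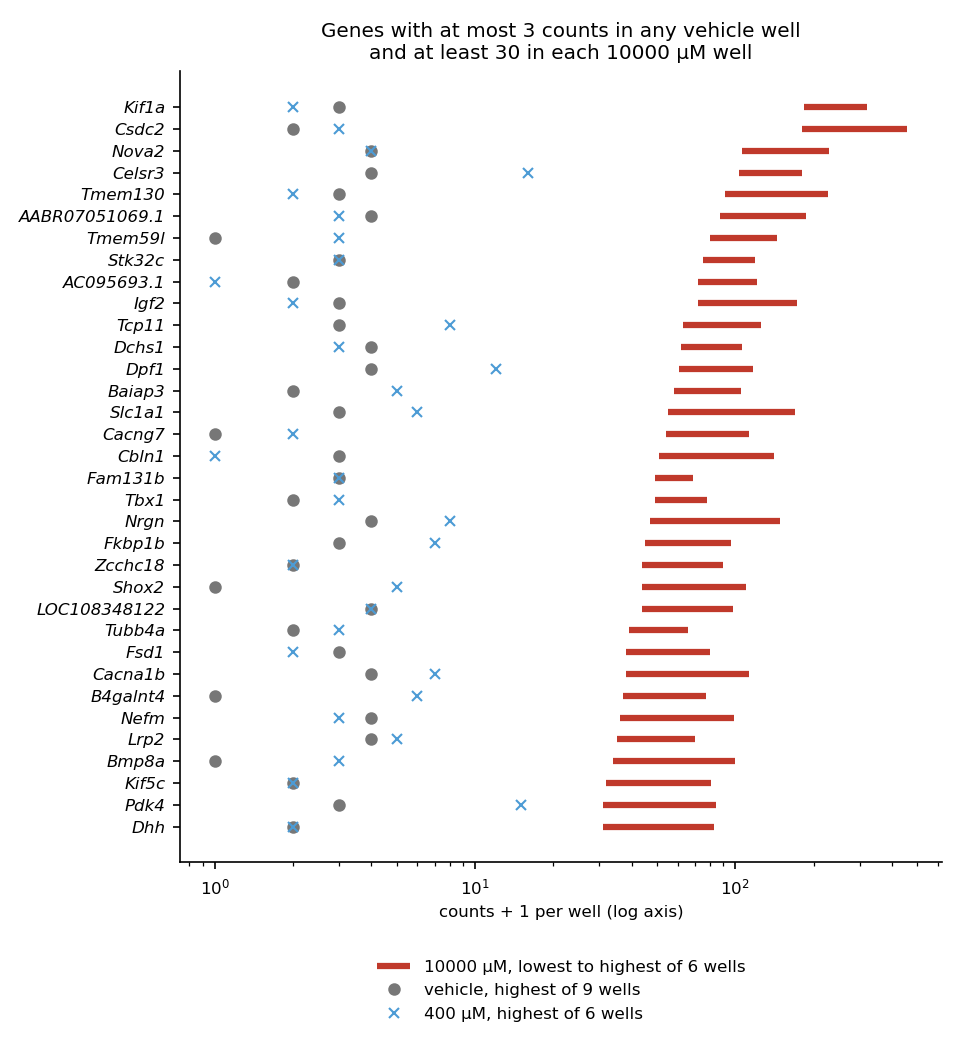
Counts + 1 per well on a log axis for the 34 genes that stayed at or under 3 counts in vehicle and had at least 30 in every well with 10000 µM valproic acid; bars span the 6 treated wells, grey points give the highest of 9 vehicle wells and crosses the highest of 6 wells with 400 µM. The bars begin at 30 counts or more, and Kif1a and Csdc2 lie highest.

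Other genes with large rises were of several kinds. Plagl1, an imprinted zinc finger gene of fetal tissues, was at 53.1 to 93.0 CPM against at most 1.32 CPM in vehicle (L2FC 7.16 ± 0.32). Elovl4, which makes very long chain fatty acids, and Aldh1a2, which makes retinoic acid, had an L2FC of 6.58 and 5.23. Neuroserpin (Serpini1) was at 40.3 to 62.0 CPM against 0.268 to 2.00 CPM, an L2FC of 5.41. Fbxo2, which recognizes glycoproteins for ubiquitination, Rab37, a GTPase of secretory granules, and Hap1, the huntingtin-associated protein, had values of 6.07, 5.56 and 5.27, and the kinase gene Stk32c had 6.35.

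The stress kinase gene Mapk13 (p38δ) rose from at most 0.555 CPM to 18.5 to 43.8 CPM, an L2FC of 6.53 ± 0.36. The start region of Mapk13 is shown as an example of a gene that rose from near 0, and has 81.3% G and C against a median of 52.7% over the table. That of Uox, the urate oxidase gene, is shown beside it and has 43.7%. Next to Ttll10, Uox had the largest fall among the tested genes that met the naming rule, with at least 50 counts in a group. No comparison of promoters between sets of genes was made. Capitals mark GGGCGG, the GC box bound by SP factors, on either strand, with neighbouring boxes overlapping. It is found in 35.9% of the promoters of the table, 7 times in that of Mapk13 (GRCr8, chr20:6836769-6837068, plus strand) and not in these letters in that of Uox (GRCr8, chr2:238146880-238147179, plus strand).

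Mapk13: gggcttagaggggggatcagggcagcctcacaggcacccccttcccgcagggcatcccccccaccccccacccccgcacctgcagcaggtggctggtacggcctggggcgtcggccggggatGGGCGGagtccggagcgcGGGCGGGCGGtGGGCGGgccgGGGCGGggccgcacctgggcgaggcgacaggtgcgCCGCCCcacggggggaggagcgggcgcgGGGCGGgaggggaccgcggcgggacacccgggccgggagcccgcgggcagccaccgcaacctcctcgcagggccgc
Uox: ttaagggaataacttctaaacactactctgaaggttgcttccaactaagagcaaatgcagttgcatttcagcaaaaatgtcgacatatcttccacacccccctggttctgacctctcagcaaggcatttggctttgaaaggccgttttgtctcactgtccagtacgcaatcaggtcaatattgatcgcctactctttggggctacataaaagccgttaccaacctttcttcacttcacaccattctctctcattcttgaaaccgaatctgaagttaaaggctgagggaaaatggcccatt

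Uox is a peroxisomal enzyme that breaks down uric acid and is abundant in rodent liver. It held 5842 to 7379 CPM in the vehicle wells with a median of 6505, 143, 185 and 206 CPM in the treated wells of batch 1 and 31.7, 34.8 and 35.9 CPM in those of batch 2. The L2FC was -6.18 ± 0.27 (adjusted p 4.98e-51), and the fall in batch 2 was larger than in batch 1 by 2.36 on the log2 scale (adjusted p 9.51e-12).

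Ttll10, a tubulin polyglycylase gene, had 81 to 161 counts in a vehicle well and 2 counts in the 6 treated wells together, a fall by a ratio of 445 with a counting interval of 123 to 3677. Snrpc, read by 1 probe and encoding a protein of the U1 splicing particle, went from 7.09 to 11.9 CPM to at most 0.303 CPM. G0s2, an inhibitor of the lipase Pnpla2, went from 70.6 to 143 CPM to between 1.48 and 3.71 CPM, an L2FC of -5.39 ± 0.23. Further genes of the 15 with the largest falls were the phenol sulfotransferase Sult1a1 (L2FC -4.69), the aldehyde dehydrogenase Aldh3a1 (-4.66), the cytokine gene Clcf1 (-4.65), the inflammasome gene Nlrc4 (-4.62), Plekhs1 (-4.57) and the mitochondrial carbonic anhydrase Car5a (-4.32).

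Secreted and defining products of hepatocytes were lower as a class. All 11 hepatocyte markers with a probe were lower, 10 of them also with library totals, and their median L2FC was -1.34. The summed level of these markers was 19779 to 25187 CPM in batch 1 against 42644 to 48870 CPM in vehicle, and 13016 to 14760 CPM against 41145 to 47767 CPM in batch 2. In these bulk samples a CPM is a share of the reads. Fewer hepatocytes among the cells and less marker RNA per hepatocyte cannot be told apart in such a share. The summed markers of the other liver cells, given below, were lower too, and their part was not tested. Albumin (Alb) went from 10332 to 14278 CPM to 5208 to 8021 CPM, an L2FC of -1.02 ± 0.10. Transferrin (Tf) fell by 2.30, the apolipoprotein Apoa1 by 1.66, Serpina1 (α1-antitrypsin) by 1.80, the asialoglycoprotein receptor Asgr1 by 2.27 and transthyretin (Ttr) by 1.24 on the log2 scale. The least change was in Tat, which breaks down tyrosine, with an L2FC of -0.44, and in the master regulator Hnf4a, with -0.61. Tat lost its call with library totals and in batch 2 alone. Its treated wells, at 19.2 to 29.1 CPM, overlapped with vehicle, at 27.3 to 39.6 CPM. None of the 11 markers was at 0 in any group of wells, so the labelled cell type was borne by its defining genes.

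Of 23 serum protein genes tested, 18 were lower and 2 higher, and the median L2FC was -1.08. Igfbp1, which binds insulin-like growth factors and is raised by fasting and stress, was one of those that rose, with 3150 to 3654 CPM in batch 1 and 6248 to 8992 CPM in batch 2 against 731 to 1782 CPM in vehicle. Of 28 coagulation genes, 22 were lower and 3 higher (median L2FC -1.20). Serpind1, the thrombin inhibitor heparin cofactor II, had the lowest value, from between 68.8 and 280 CPM to between 3.06 and 3.49 CPM in all 6 wells. The factors F10 and F11 had an L2FC of -2.86 and -2.54.

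Complement and acute phase genes followed with 24 of 29 lower and 2 higher (median L2FC -1.40), Hamp being one of those that rose. The lectin Mbl1, which starts a complement pathway, had an L2FC of -4.27 ± 0.18, C-reactive protein (Crp) one of -2.79 and haptoglobin (Hp) one of -2.64. Fibrinogen alpha (Fga) fell on average by 1.34 on the log2 scale, but its treated wells of batch 1 (3694 to 5307 CPM) lay within the range of the 9 vehicle wells. Within batch 1 itself they were below the vehicle wells, which held 6536 to 8582 CPM.

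**Figure D3:**
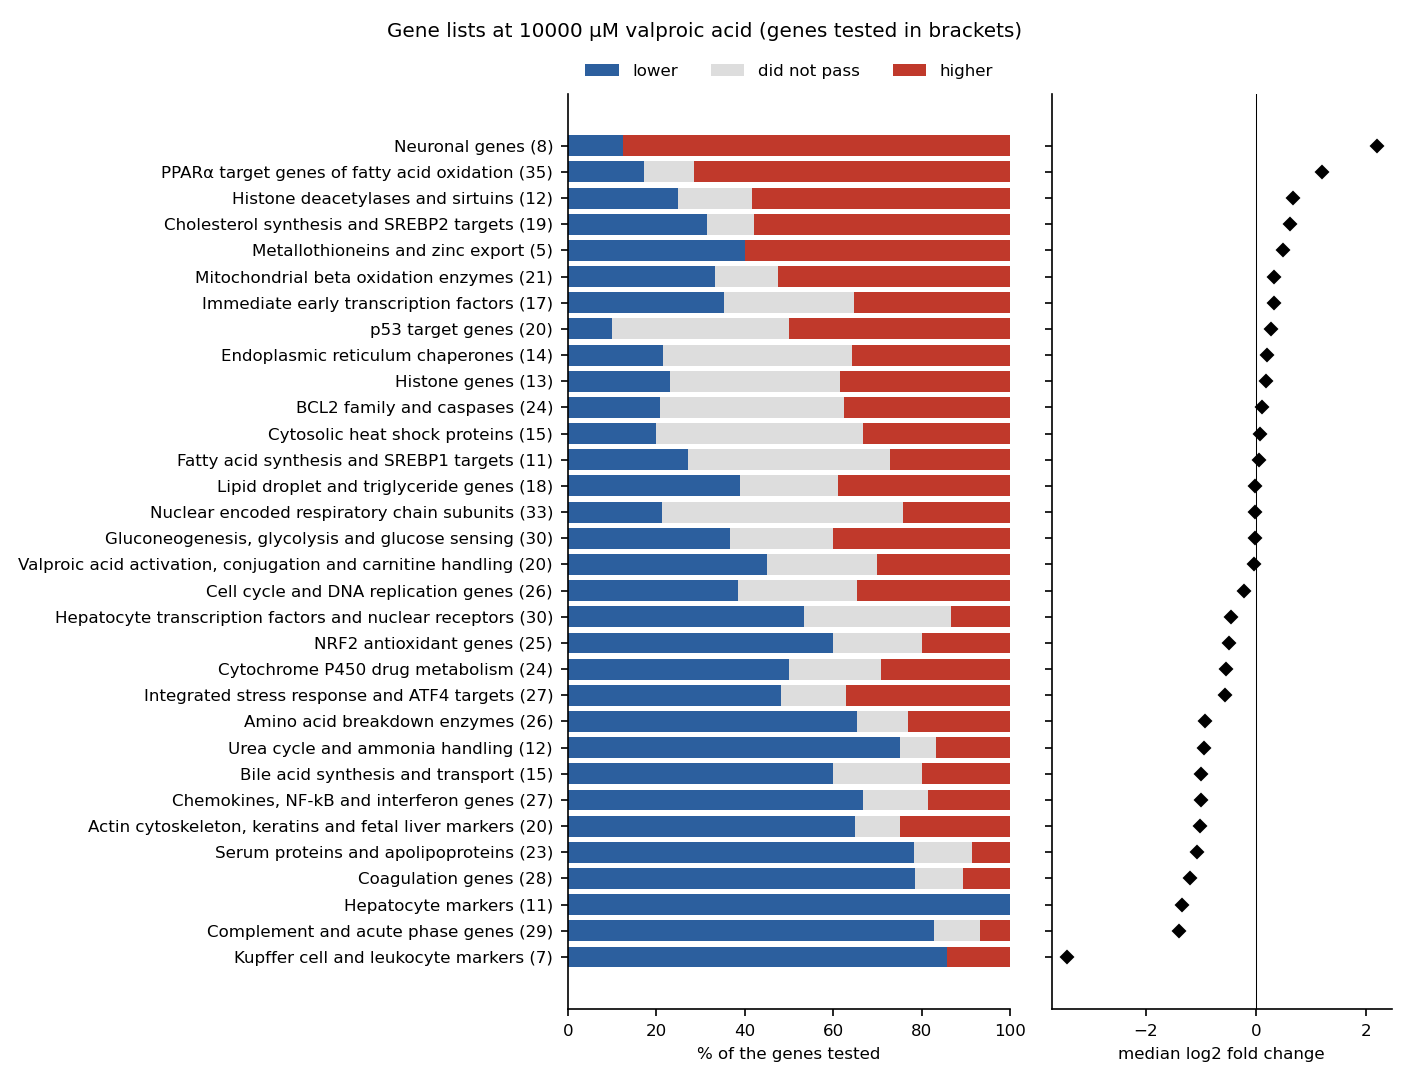
Share of the tested genes of each list that were lower, did not pass or were higher at 10000 µM valproic acid (left, in %, with the number tested in brackets) and the median L2FC against vehicle (right), for lists with at least 5 genes tested. Neuronal genes have the highest median at 2.20, and Kupffer cell markers the lowest at -3.44.

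The enzymes that dispose of nitrogen were mostly lower. In the list of the urea cycle and ammonia handling, 9 of 12 genes tested were lower and 2 higher, with a median L2FC of -0.94. Otc, which joins carbamoyl phosphate to ornithine, was at 0.740 to 5.92 CPM against 12.3 to 38.0 CPM in vehicle (L2FC -3.13 ± 0.22). Cps1, which makes that carbamoyl phosphate from ammonia, went from 225 to 377 CPM to between 34.7 and 79.5 CPM (L2FC -2.38 ± 0.18). The treated wells of both enzymes were all below the vehicle wells.

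Ass1, which condenses citrulline with aspartate, gave another picture in each rat. Its L2FC over both batches was -0.61 (adjusted p 6.25e-06), with 0.14 in batch 1 and -1.22 in batch 2, a difference that passed the test (adjusted p 1.43e-08). Asl, which follows it in the cycle, was higher by 0.74, and Glul, which fixes ammonia in glutamine, rose from 28.0 to 39.2 CPM to between 54.5 and 93.0 CPM (L2FC 1.31 ± 0.12).

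Among amino acid breakdown enzymes, 17 of 26 were lower and 6 higher (median L2FC -0.92). Hgd of the tyrosine pathway had an L2FC of -4.40, histidase (Hal) -2.97, and Bhmt, which remethylates homocysteine, -2.92. Aass, which begins lysine breakdown, went the other way, from 19.2 to 28.1 CPM to 67.0 to 153 CPM (L2FC 2.35 ± 0.18).

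The genes that activate and conjugate carboxylic acids, valproic acid among them, were split, with 9 of 20 lower and 6 higher (7 and 9 with library totals) and a median L2FC of -0.04, which turned to 0.23 with library totals. The members with the largest falls were glycine N-acyltransferases, which join acyl-CoA to glycine. Glyatl1 was at 87.8 to 135 CPM in vehicle and at 5.72, 5.92, 6.98, 2.43, 4.85 and 4.18 CPM in the treated wells (L2FC -4.65 ± 0.26). Its relative Glyat had 13 to 50 counts in a vehicle well and 3 counts in the treated wells together, a ratio of 81.2 with a counting interval of 27.8 to 394. Glyatl2, which was not a member of the list, had an L2FC of -4.68. Acsm2, a medium-chain acyl-CoA ligase, fell from 418 to 614 CPM to between 26.1 and 48.6 CPM (L2FC -3.82 ± 0.18).

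Targets of PPARα were higher than vehicle but mostly lower than at 400 µM. At 10000 µM, 25 of 35 were higher and 6 lower, with a median L2FC of 1.21 (27 and 2 with library totals). At 400 µM, 34 of 35 were higher and 0 lower (median L2FC 2.20), where 15.1% of all genes tested were higher and 14% lower. Both use the same vehicle wells. In the direct comparison of both concentrations, which uses no vehicle well, 27 were lower at 10000 µM and 1 was higher, with a median L2FC of -1.38. There, 65.3% of all genes were called, 32.8% higher and 32.5% lower at 10000 µM, and the median of all genes was 0.015.

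Cyp4a1 and Cyp4a2 hydroxylate the end of fatty acids and are classical targets. Cyp4a2 was at 7.96 to 13.2 CPM in vehicle, at 1679 to 3227 CPM with 400 µM, and at 190, 224 and 234 CPM in batch 1 and 44.6, 55.2 and 54.1 CPM in batch 2 with 10000 µM. Its L2FC against 400 µM was -4.29 (adjusted p 4.21e-25), and that of Cyp4a1 was -5.67 (adjusted p 1.38e-31). The peroxisomal enzyme Ehhadh held 10.6 to 28.0 CPM at 10000 µM against 142 to 431 CPM at 400 µM and 0.713 to 3.00 CPM in vehicle. All 3 stages of these genes were apart, with the higher concentration in the middle.

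Acot1, a cytosolic acyl-CoA thioesterase, had 2 counts in the vehicle wells together, 2.93 to 8.36 CPM at 10000 µM and 11.4 to 41.2 CPM at 400 µM. Its ratio to vehicle at 10000 µM was 159, with a counting interval of 43.9 to 1309. Fabp1, the liver fatty acid binding protein, named here after its values were seen, moved in opposite directions: it rose to 358 to 999 CPM at 400 µM and fell to 3.87 to 10.9 CPM at 10000 µM from 17.4 to 61.8 CPM in vehicle. Pdk4, which shuts pyruvate out of the citric acid cycle, was the target that was higher at 10000 µM than at 400 µM, with 4.13 to 8.39 CPM against 1.08 to 2.12 CPM and at most 0.341 CPM in vehicle. Cpt1a, the gate of fatty acids into mitochondria, had an L2FC of 2.5 at 10000 µM and 2.20 at 400 µM.

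**Figure D4:**
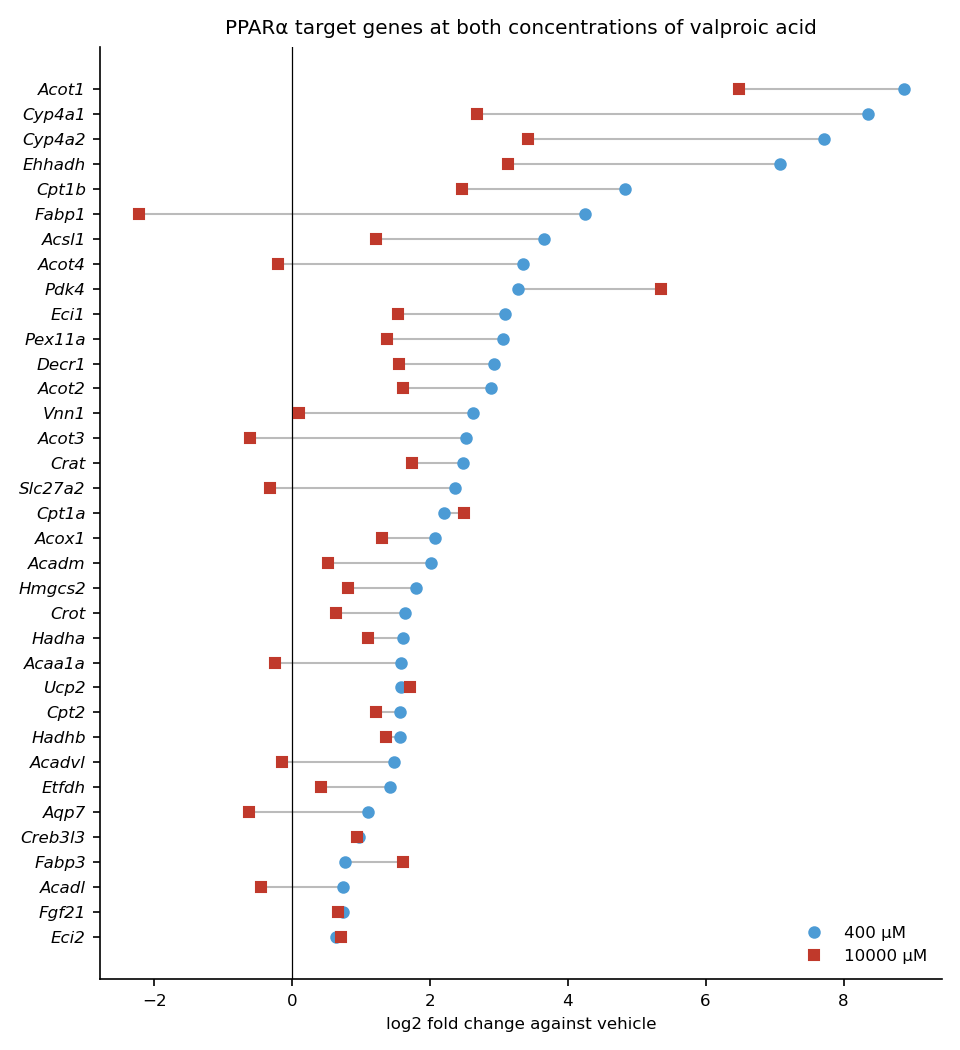
L2FC against the same vehicle wells for the 35 PPARα target genes tested, at 400 µM (circles) and 10000 µM valproic acid (squares), ordered by the value at 400 µM. All circles lie to the right of 0, most squares lie to the left of their circle, Fabp1 crosses from 4.24 to -2.23, and Pdk4 lies further right at 10000 µM.

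The gene of the receptor itself, Ppara, was lower, with 11.6 to 23.8 CPM against 29.2 to 80.2 CPM (L2FC -1.67 ± 0.23). Pparg, the related receptor of fat storage, was higher, with an L2FC of 2.11 ± 0.19. In the list of hepatocyte transcription factors and nuclear receptors, 16 of 30 were lower and 4 higher (15 and 8 with library totals). Their median L2FC was -0.45 with TMM, with the oxysterol receptor Nr1h3 at -2.67 and the drug receptor Nr1i2 at -1.94.

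Mitochondrial beta oxidation enzymes were split at 10000 µM, with 11 of 21 higher and 7 lower (12 and 4 with library totals). Their median L2FC was 0.33 with TMM. Decr1 and Eci1, which handle the double bonds of unsaturated fatty acids, were higher by 1.55 and 1.54 and Hadhb of the trifunctional protein by 1.36, whereas Echs1, the short chain hydratase, fell by 1.23 on the log2 scale. Against 400 µM, 17 of the 21 were lower and 0 higher.

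Lipid droplet genes held 7 higher and 7 lower of 18 (9 and 6 with library totals). Plin2, which coats lipid droplets, was at 1011 to 1307 CPM at 10000 µM, 865 to 1077 CPM at 400 µM and 231 to 320 CPM in vehicle, where the median was 277 (L2FC 2.01 ± 0.10). Against 400 µM its L2FC was 0.25 (adjusted p 0.033). Hilpda, another droplet protein, had an L2FC of 2.25 at 10000 µM and 2.07 at 400 µM, and the difference between the concentrations did not pass the test (L2FC 0.18, adjusted p 0.20). The lipase Pnpla2 rose by 1.79, while its inhibitor G0s2, described above, went down, and Gpam, which begins glycerolipid synthesis, had an L2FC of -1.56. G0s2 had been higher by 1.62 at 400 µM.

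Fatty acid synthesis genes showed 3 higher and 3 lower of 11 (7 and 2 with library totals), with the desaturase Scd2 at an L2FC of 3.41, the elongase Elovl5 at 1.42 and Thrsp, a lipogenic regulator, at -1.62. Cholesterol synthesis genes showed 11 higher and 6 lower of 19 (12 and 3 with library totals). With TMM their median L2FC was 0.62, and 14 of the called genes had the same sign in both batches. Mvd, of the mevalonate pathway, was higher by 1.95.

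Of 30 genes of glucose handling, 12 were higher and 11 lower (15 and 8 with library totals). G6pc, which releases glucose from the cell, was at 5.86 to 12.5 CPM against 0.179 to 0.825 CPM in vehicle (L2FC 4.35 ± 0.35). The glucose transporter Slc2a2 had an L2FC of -3.23. The treated wells of both genes did not overlap with vehicle.

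The class I histone deacetylases are targets of the drug. Of 12 HDAC and sirtuin genes tested, 7 were higher and 3 lower (8 and 2 with library totals), with a median L2FC of 0.68. Without the sirtuins 5 of 7 were called, near the 66.7% called over all genes. Hdac1 was at 26.9, 27.6 and 29.2 CPM in batch 1 and 45.0, 27.5 and 21.0 CPM in batch 2 against 4.82 to 12.0 CPM in vehicle, with a median of 7.24 (L2FC 1.95 ± 0.20). Hdac2, the other class I member of the same complexes, had an L2FC of -0.10 ± 0.11 that did not pass (adjusted p 0.43). Hdac3 (0.60), Hdac4 (0.77), the cytosolic Hdac6 (0.92) and the sirtuins Sirt2 (0.98), Sirt3 (0.89) and Sirt7 (1.13) were higher, and Hdac10 (-0.74) and Sirt6 (-0.67) were lower. Hdac4 lost its call in batch 1 alone, with 6.04 to 8.12 CPM against 4.93 to 6.82 CPM in vehicle. Sirt5 (-0.31, adjusted p 0.026) lost its call with library totals (adjusted p 0.81), without the batch term, in each batch alone and when any of 4 single wells was left out. Hdac5 had an L2FC of 0.26 that did not pass (adjusted p 0.30) but passed with library totals (0.54, adjusted p 0.019). Among 13 histone genes, 5 were higher and 3 lower (8 and 1 with library totals), and the linker histones Hist1h1c and Hist1h1d had an L2FC of 1.12 and 1.61 and the H2A variant H2afj one of 1.15.

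Of 24 drug-metabolizing cytochrome P450 genes, 12 were lower and 7 higher, with a median L2FC of -0.53 (11 and 9 with library totals). Cyp1a1, which oxidizes aromatic hydrocarbons, went from 25.8 to 40.7 CPM to between 0.423 and 3.09 CPM (L2FC -4.29 ± 0.30), and the male-specific Cyp2c11 and its relative Cyp2c24 had an L2FC of -3.46 and -3.75. Cyp1b1, which shares substrates and a receptor with Cyp1a1, rose from at most 1.44 CPM to 3.94 to 10.2 CPM (L2FC 3.83 ± 0.35). Bile acid genes had 9 of 15 lower and 3 higher (median L2FC -1.0), among them Hsd3b7 of bile acid synthesis with -2.28 and the uptake carriers Slco1a1 with -2.62 and Slc10a1 with -2.11.

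Of 27 genes of the integrated stress response, 13 were lower and 10 higher, with a median L2FC of -0.56 (12 and 12 with library totals). Ddit3 (CHOP), a death-promoting factor of this response, was at 111 to 140 CPM in batch 1 and 201 to 266 CPM in batch 2 against 20.7 to 29.3 CPM in vehicle (L2FC 2.79 ± 0.16). Atf5 and the mitochondrial folate enzyme Aldh1l2 were lower by 2.10 and 2.12. Chaperones of the endoplasmic reticulum held 5 higher and 3 lower of 14 (8 and 3 with library totals), with Sel1l at 1.01 and Edem1 at -2.32, both of which serve the disposal of misfolded proteins.

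Among p53 targets, 10 of 20 were higher and 2 lower (median L2FC 0.29). Pmaip1 (NOXA), which sensitizes cells to apoptosis, rose from 0.963 to 3.75 CPM to 24.0 to 34.9 CPM (L2FC 3.66 ± 0.21), Mdm2, the p53 ubiquitin ligase, was higher by 1.57 and the polymerase gene Polk by 1.25, while Plk2 was lower by 1.35. The BCL2 and caspase list had 9 higher and 5 lower of 24 (13 and 3 with library totals), with the survival gene Bcl2a1 at 2.42 and Casp8 at -1.43.

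Of 15 cytosolic heat shock genes, 5 were higher and 3 lower (8 and 2 with library totals). Their median L2FC was 0.07 with TMM. Hspb1 was at 139 to 208 CPM against 24.7 to 34.5 CPM (L2FC 2.47 ± 0.13), and Hspa2, which is known from the testis and brain, had an L2FC of 4.76, Hspa4l 2.27 and Hspa1a 2.03. Antioxidant targets of NRF2 were 15 lower and 5 higher of 25 (median L2FC -0.49), with Akr7a3 at -1.92, Gclm at -1.79 and Nqo1 at -1.23. Of 5 metallothionein and zinc genes, 3 were higher and 2 lower. Mt2A was at 57.3 to 86.5 CPM against 11.4 to 42.5 CPM, and Mt1 overlapped with vehicle across batches, with an L2FC of 1.22 (adjusted p 0.0020) whose adjusted p was 0.15 without the batch term.

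Of 17 immediate early genes, 6 were higher and 6 lower (9 and 6 with library totals). The transcription factor gene Klf2 had an L2FC of 2.12, Fos 1.59 and Myc -1.86. Of 26 cell cycle genes, 10 were lower and 9 higher (10 and 12 with library totals). With TMM, 16 of the called genes had the same sign in both batches. Cyclin A2 (Ccna2) had an L2FC of -3.30, Top2a -1.90 and cyclin E2 (Ccne2) 1.81. In 33 nuclear genes of the respiratory chain, 8 were higher, 7 lower and 18 did not pass, against 17 higher and 4 lower with library totals. The cytoskeletal list had 13 lower and 5 higher of 20 (median L2FC -1.02): the neuronal tubulin Tubb2b rose from 1.44 to 2.83 CPM to 60.5 to 74.6 CPM (L2FC 5.20 ± 0.22) and Tpm2, a muscle tropomyosin, from 0.512 to 2.16 CPM to 29.5 to 36.9 CPM (L2FC 4.69 ± 0.27), whereas Tagln, an actin-binding protein of smooth muscle, had an L2FC of -2.75.

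Markers of other liver cells were mostly lower for Kupffer and stellate cells and mixed for endothelial cells and cholangiocytes. Of 13 Kupffer cell and leukocyte markers with a probe, 7 passed the filter, and of these 6 were lower and 1 higher (median L2FC -3.44). Their summed level was 32.7 to 45.6 CPM in batch 1 and 24.7 to 31.3 CPM in batch 2, against 95.7 to 124 CPM and 79.0 to 97.6 CPM in vehicle. The scavenger receptor Cd163 was at 0.266 to 1.03 CPM against 8.18 to 12.2 CPM (L2FC -4.53 ± 0.35), Clec4f had an L2FC of -3.95, Lyz2 -3.76, Csf1r -3.44, C1qc -3.08 and Cd14 -0.98. Cd68, a lysosomal protein, was higher by 0.81. It lost its call in batch 2 alone, with 8.90 to 9.52 CPM against 4.44 to 9.41 CPM in vehicle. C1qa was at 0 in each treated well.

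Stellate cell and fibroblast markers had a summed level of 145 to 162 CPM and 73.9 to 81.8 CPM in the batches against 378 to 404 CPM and 237 to 304 CPM in vehicle, and 3 of 4 tested were lower (with library totals the other was higher), among them Col3a1 (-2.53) and Reln (-1.88). Endothelial markers summed to 20.1 to 27.5 CPM and 14.2 to 18.8 CPM against 28.0 to 33.8 CPM and 26.7 to 32.2 CPM, with 2 of 3 lower and 1 higher, and Fcgr2b at -3.35. Of these 3 called genes, 2 had the same sign in both batches. Cholangiocyte markers summed to 89.0 to 111 CPM and 105 to 115 CPM against 114 to 128 CPM and 121 to 140 CPM, with Sox9 higher by 1.01, 1 of 4 tested lower and 2 not passing (2 higher and 1 lower with library totals). Stab2, Lyve1 and Acta2 were at 0 in each treated well, and Krt7 and Muc1 were at 0 in each treated and each vehicle well. The part of these cells in the other results was not tested.

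Chemokine, NF-κB and interferon genes were lower in 18 of 27 and higher in 5 (median L2FC -1.0). The chemokine genes Ccl20 and Cxcl3 had an L2FC of -4.14 and -2.40 and the interferon gene Ifit2 one of -2.15. Cxcl10, an interferon-induced chemokine, went against them, with 207 to 421 CPM against 31.2 to 62.7 CPM (L2FC 2.76 ± 0.35), and the interferon-induced Rsad2 had an L2FC of 2.86. The fall of this list ran beside that of the Kupffer cell markers, and their part in it was not tested.

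The L2FC had the same sign in both rats in 8505 of the 10191 genes tested (83.5%). Fitted within each batch, 5153 genes passed in the first and 6459 in the second. The size of the change differed between the batches in 879 genes (8.63%), and 49 genes were called in opposite directions. A batch is a rat together with whatever its wells shared in handling, and these cannot be told apart.

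**Figure D5:**
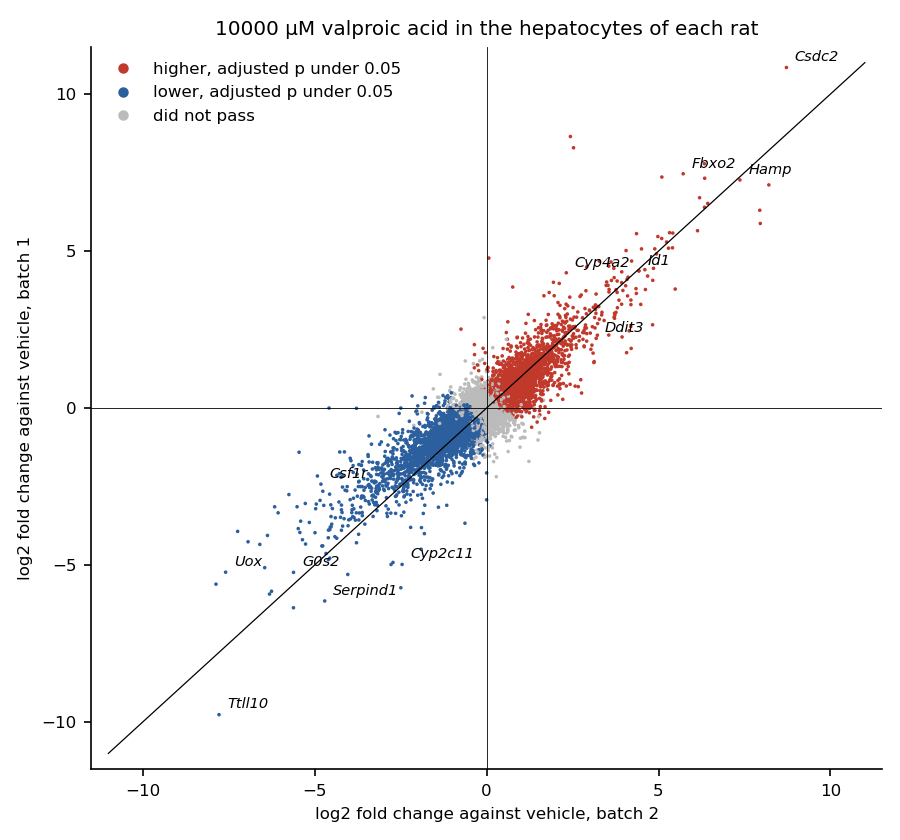
L2FC of 10000 µM valproic acid against vehicle in batch 2 (x axis) and batch 1 (y axis) for the 10191 genes tested, with genes higher in red, lower in blue and those that did not pass in grey. Hamp and G0s2 lie near the diagonal of equal change, Uox and Csf1r fell further in batch 2, and Cyp2c11 and Serpind1 fell further in batch 1.

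The ST assay, run on the same lysates with probes for fewer genes, called 70.3% of 1760 genes, 614 higher (34.9%) and 623 lower (35.4%). Of 1603 genes tested in both assays, 1009 were called in each, and 1008 of these had the same direction. The exception, Acaa1a, a peroxisomal thiolase named after its values were seen, had an L2FC of -0.25 by WT and 0.66 by ST assay. The L2FC by ST assay was 5.72 for Mapt, 2.01 for Plin2, 3.06 for Ddit3, -5.42 for G0s2, -5.16 for Serpind1 and -2.89 for Otc. Hamp, Hdac1 and Uox were not tested by that assay.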

How the data were processed

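Counts per probe and well of the WT and ST assays were used as the authors deposited them, without normalization. Per the labels and the study's methods, reads were aligned to rn6 with STAR 2.5.3a and counted per probe, so a value does not depend on transcript length. Counts of probes with the same symbol were added (22253 WT probes, 20946 symbols). Genes whose counts averaged 10 or more over all wells were tested with edgeR 4.0.16 (quasi-likelihood F-test, TMM, all groups, batch as a term) in R 4.3.3. Calls had a Benjamini-Hochberg adjusted p under 0.05. CPM was computed with TMM library sizes, and SE as the absolute L2FC over the root of F. P-values rest on the spread between wells, which within a rat is technical, and counting intervals (exact Poisson interval of the smaller count, 95%) cover counting error only. Batch deviations of treated and vehicle wells had a correlation of 0.55 over genes (log2(CPM + 1)), and each batch is a rat, so batch pairs the groups.

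Genes were named by rule: the 15 largest and 15 smallest L2FC among called genes with a real symbol, at least 50 counts on average in either group, the same sign in both batches and no overlap of wells within a batch; up to 5 called genes per list; and members of the HDAC, urea cycle, metallothionein and cell marker lists. Fabp1 and the BMP list were named after their values were seen. Some genes the rule names are not reported here. The members and the 36 lists were chosen with earlier results of these data known. RefSeq promoters (GRCr8) were matched by symbol, which reached under 80% of the genes tested, so no comparison of promoters between gene sets was made. Alternatives were DESeq2 1.42.0, RLE factors, library totals, no filter, only the 15 wells of both groups, vehicle wells of the same plate, each batch alone, no batch term, an absolute L2FC of at least 1, single probes, the ST assay and each of 15 wells left out. A filter over only these 15 wells was added after seeing the data. The code was tested on simulated counts before use.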

Additional observations from a re-analysis of the deposited data

Results flagged for a closer look

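The change at 10000 µM valproic acid differed between the batches in 879 genes by the test of the difference itself, and 30 of the named genes were among them. The values that follow are the L2FC of batch 1 minus that of batch 2, and no explanation was tested. Liver enzymes, carriers and receptors that fell in both rats and further in batch 2 were Uox (2.36), Sult1a1 (1.64), Cyp1a1 (1.51), Hgd (1.47), Gpam (1.02), Hsd3b7 (0.95), Acsm2 (0.88), Nr1i2 (0.81) and Slc2a2 (0.78). The same held for the secreted proteins Fga (1.35), Tf (1.19), F10 (1.01) and Alb (0.64), for the macrophage markers Csf1r (2.39) and C1qc (2.02), and for Tagln (2.27), Cplx2 (2.05), Cxcl3 (1.70) and Hfe (0.53). Cyp2c11 (-2.52) and Serpind1 (-1.44) fell further in batch 1. Cyp4a2 (1.99), Cyp4a1 (1.91), Pparg (0.99), Decr1 (0.60) and Sirt2 (0.51) rose more in batch 1, and Mvd (-1.84), Hist1h1d (-1.20) and Ddit3 (-0.97) more in batch 2. Ass1 (1.36) had opposite signs in the batches, and its value in batch 1 did not pass the test.

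A single vehicle well of batch 2 lay far from the other 5 in 9 of 153 named genes, and chance alone flags about 1 in 20 such groups. Lower than the rest were the wells with 0.855 CPM of Hamp, 9422 CPM of Apoa1, 59.4 CPM of Mdm2 and 24.7 CPM of Hspb1. Higher than the rest were those with 1.33 CPM of Elovl4, 0.167 CPM of Acot1, 3.33 CPM of Slc10a1, 59.4 CPM of Sel1l and 6.19 CPM of Lyz2. They were not all the same well.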

How the results depend on the processing

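The 6794 genes changed against vehicle numbered 2341 when an absolute L2FC of at least 1 was also asked for, 999 of them higher and 1342 lower. With library totals 2252 genes were lower, and the ST assay, which has probes for fewer genes, gave 1237 genes, 614 higher and 623 lower. Leaving out each of the 15 wells in turn gave 6535 to 6732 genes (3283 to 3396 higher, 3223 to 3367 lower), 1197 to 1229 by ST assay (593 to 612 and 595 to 622), and 641 to 907 genes whose change differed between batches (403 to 582 and 187 to 325). The lowest of the last was 187 without replicate 1 of batch 2, and 199 without replicate 2 of batch 1, both treated wells, against 306 in all. Leaving out a treated well gave 6428 to 6567 genes against 400 µM (3205 to 3284 and 3210 to 3302). Without the batch term, which is the replicate block since it pairs treated and vehicle wells of a rat, 6334 genes were called against vehicle (1132 by ST assay) and 6174 against 400 µM, and Mt1 was no longer called.

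Of 153 named genes, 135 kept their direction and their side of the threshold under all alternatives. Reversed were Hdac2, which never passed, with an L2FC of 0.17 with library totals, 0.049 in batch 2 alone and 0.028 by ST assay, and Ass1 with 0.14 in batch 1 alone. Sirt5 lost its call with library totals, without the batch term, in each batch alone and without any of 4 single wells (treated wells 1 of batch 1 and 2 or 3 of batch 2, vehicle well 1 of batch 2). Tat lost it with library totals and in batch 2, Hdac4 in batch 1 and Cd68 in batch 2. Hdac5 gained a call with library totals. An absolute L2FC of at least 1 was not reached by 15 of the genes called, the most lost under any alternative. Of the numbers of genes higher or lower in a list, 14 moved by more than 1.5 times with library totals, 11 in batch 1 alone, 5 in batch 2 alone, 2 with only the wells of both groups, and 1 each without a filter, without the batch term and with vehicle wells of the same plate. The causes were not tested. Depth limited the genes near 0, where a level rests on few counts.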
